A study of Mus musculus with 12 samples.

Results

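Mast cell genes were followed in the cochlear epithelium of mouse embryos, the lining of the duct that becomes the hearing organ, at embryonic day 16.5. The set held 10 genes of the 22869 gene symbols in the deposited table: the tryptases Tpsb2 and Tpsab1, the chymases Cma1, Mcpt2 and Mcpt4, the carboxypeptidase Cpa3, the histamine-forming enzyme Hdc, the stem cell factor receptor Kit, and the alpha and beta subunits of the IgE receptor, Fcer1a and Ms4a2. All 10 were found by symbol. The set was chosen by function with results of the same knockout and control comparison already known, so the measured difference between genotypes in these genes is a description and no support for itself. Where a gene had more than 1 transcript row, as Tpsab1 and Kit had, the row was chosen by its reads summed over all embryos.

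There were 3 wild-type embryos (Esrp1+/+, control) and 3 Esrp1-/- embryos (knockout), all C57BL/6, and both cochleae of each embryo were pooled. Esrp1 encodes an RNA-binding protein that sets splicing in epithelia. Manual dissection was followed by collagenase P to take away the mesenchyme around the epithelium. Because whole tissue was measured, more mast cells and more RNA per mast cell cannot be told apart.

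Mast cells are blood-derived cells of connective tissue that store proteases and histamine in granules bound to heparin-like chains. Their precursors enter tissues of the embryo and mature there under the control of KIT and its ligand. Mature cells carry the high-affinity IgE receptor, and connective tissue mast cells of the mouse are known for the chymases encoded by Cma1 and Mcpt4, for the tryptase of Tpsb2 and for carboxypeptidase A3. KIT also marks melanocytes, the pigment cells that form the intermediate layer of the stria vascularis, so Kit alone does not mark mast cells in the cochlea.

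The genes lie on 7 chromosomes (RefSeq, GRCm38, the assembly of mm10). Cma1 (chromosome 14, 55941451 to 55944675), Mcpt2 (56021584 to 56044635) and Mcpt4 (56059744 to 56062310) lie close together on chromosome 14, and Tpsab1 (chromosome 17, 25343245 to 25345562) lies near Tpsb2 on the same chromosome (25366308 to 25368096). Cpa3 is on chromosome 3 (20215616 to 20242209), Hdc on chromosome 2 (126593659 to 126624025), Kit on chromosome 5 (75574987 to 75656722), Fcer1a on chromosome 1 (173221269 to 173227232) and Ms4a2 on chromosome 19 (11615517 to 11623790). Proteases of 1 family resemble each other, and a read could be given to the wrong gene. Of the 50-base windows of each GENCODE transcript, 0% were shared with another gene for Tpsb2, Tpsab1, Mcpt2, Cpa3, Hdc, Kit, Fcer1a and Ms4a2, 5.46% for Cma1 (mostly with Gm48934) and 5.48% for Mcpt4 (mostly with Cma2). The read length is not given in the sources used here.

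Promoter sequence was matched for 7 of the 10 genes, Kit with 2 starts. The 200 bases before the start are shown for 3 proteases and for Hdc, whose levels are described next, and for Fcer1a, which had no read, so that the undetected gene can be set beside the detected ones. They are given 5′ to 3′ on the gene's strand (RefSeq, GRCm38.p6), with GATAA or its reverse complement TTATC, the core that GATA factors recognise, in capitals. The start used for Hdc lies within the annotated gene, and the stretches of Cpa3 and Fcer1a overlap the annotated gene where they meet the start.
Cma1, chr14:55944676-55944875, minus strand: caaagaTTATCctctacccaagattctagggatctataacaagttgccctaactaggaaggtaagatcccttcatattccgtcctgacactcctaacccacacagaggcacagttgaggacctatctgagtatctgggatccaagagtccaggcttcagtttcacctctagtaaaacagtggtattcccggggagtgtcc
Mcpt4, chr14:56062311-56062510, minus strand: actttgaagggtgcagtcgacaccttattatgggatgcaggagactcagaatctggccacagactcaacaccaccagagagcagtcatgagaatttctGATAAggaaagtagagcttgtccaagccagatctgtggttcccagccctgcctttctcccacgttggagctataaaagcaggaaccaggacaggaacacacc
Cpa3, chr3:20242182-20242381, minus strand: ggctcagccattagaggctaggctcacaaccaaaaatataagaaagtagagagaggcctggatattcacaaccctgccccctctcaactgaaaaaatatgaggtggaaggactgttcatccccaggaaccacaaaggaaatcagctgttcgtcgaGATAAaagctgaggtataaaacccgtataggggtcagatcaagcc
Hdc, chr2:126618679-126618878, minus strand: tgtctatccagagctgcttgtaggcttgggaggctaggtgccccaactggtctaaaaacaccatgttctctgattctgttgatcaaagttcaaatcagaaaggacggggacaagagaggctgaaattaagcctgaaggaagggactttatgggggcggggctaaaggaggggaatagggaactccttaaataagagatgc
Fcer1a, chr1:173227230-173227429, minus strand: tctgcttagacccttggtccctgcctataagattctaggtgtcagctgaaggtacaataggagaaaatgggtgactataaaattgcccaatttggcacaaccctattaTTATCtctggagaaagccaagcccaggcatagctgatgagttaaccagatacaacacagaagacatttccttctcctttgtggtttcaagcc

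In the 250 bases before the start, GATAA on either strand was found in 5 of the 7 genes matched, namely Cma1, Mcpt4, Cpa3, Fcer1a and Ms4a2, and in 22.58% of 32851 promoters. Hdc and Kit had no match. The motif lay 194 bases before the start in Cma1, 102 in Mcpt4, 45 in Cpa3 and 92 in Fcer1a. The undetected Fcer1a thus held it as well as the proteases with reads. TATAA on either strand, which can overlap with GATAA only in part, was found in Cma1, Mcpt4, Cpa3 and Fcer1a and in 22.78% of promoters, and CANNTG, the E-box, in Cma1, Cpa3, Hdc and Fcer1a and in 66.22%. CATGTG, a form of the E-box that MITF recognises and so a part of the CANNTG matches, was found in 1 gene, Fcer1a, and in 12.25% of promoters. GAGGAA, the core of PU.1 sites, was found in Fcer1a and Kit and in 23.25%. These matches are letters in a window and say nothing about binding.

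The tryptase genes were followed first. Tryptases are trypsin-like serine proteases of the granule. Tpsb2 had 103, 110 and 175 reads in controls 1, 2 and 3 and 450, 276 and 451 reads in knockouts 1, 2 and 3. Scaled to library size with TMM factors (CPM), these were 6.46, 4.99 and 9.43 CPM in the controls and 34.3, 14.8 and 30.1 CPM in the knockouts. Each knockout embryo lay above each control embryo, with knockout 2 nearest to the controls. The group levels were 6.96 ± 2.26 and 26.4 ± 10.3 CPM (SD, n = 3 each), and the log2 fold change of knockout over control was 1.92 ± 0.35 (SE). It did not pass edgeR's quasi-likelihood test over all genes (adjusted p = 0.132, unadjusted p = 0.000444). The related Tpsab1 was scarce, at 8, 0 and 2 reads in the controls and 14, 8 and 9 in the knockouts. Control 1 overlapped with knockout 2, and the gene had too few reads to be tested. Its ratio of summed reads, scaled to depth, was 3.75 (95% interval 1.79 to 8.58, counting error only).

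Among the chymases, chymotrypsin-like proteases of the granule, Cma1 followed Tpsb2 closely. It had 95, 118 and 211 reads in the controls and 460, 254 and 452 in the knockouts, which is 5.95, 5.35 and 11.4 CPM against 35.1, 13.6 and 30.2 CPM. All knockouts again lay above all controls, the gap being that between control 3 and knockout 2. Cma1 thus had a log2 difference of 1.79 ± 0.40 (SE) with an edgeR adjusted p = 0.241. Mcpt4 had 1.63, 3.49 and 3.88 CPM in the controls and 8.005, 8.27 and 7.87 CPM in the knockouts. Its knockout embryos stood close together, in contrast to their spread in Cma1 and Tpsb2. For Mcpt4 edgeR gave a log2 difference of 1.41 ± 0.33 (SE) and an adjusted p = 0.263.

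Mcpt2, best known as a chymase of mucosal mast cells, was low. It had 2, 2 and 8 reads in the controls and 13, 11 and 54 reads in the knockouts. The groups did not overlap in CPM (0.0907 to 0.431 against 0.591 to 3.60), but most reads came from knockout 3. In edgeR Mcpt2 had a log2 difference of 2.96 ± 0.86 (SE) with adjusted p = 0.524. Without knockout 3 it was 1.82.

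Cpa3 encodes the granule carboxypeptidase, a metalloprotease that trims proteins from their C-terminal end. It had 116, 154 and 300 reads in the controls and 405, 255 and 523 in the knockouts, or 7.27, 6.99 and 16.2 CPM against 30.9, 13.7 and 34.9 CPM. Knockout 2 lay below control 3, so the groups overlapped. Its log2 difference in edgeR was 1.38 ± 0.42 (SE) at an adjusted p = 0.570.

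Hdc encodes histidine decarboxylase, which makes histamine from histidine. It had 2.44, 2.09 and 3.61 CPM in the controls and 7.01, 6.98 and 11.1 CPM in the knockouts (39 to 67 reads against 92 to 166 reads). All knockouts lay above all controls, with knockout 3 highest. edgeR gave Hdc a log2 difference of 1.62 ± 0.32 (SE) and an adjusted p = 0.164.

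**Figure D1:**
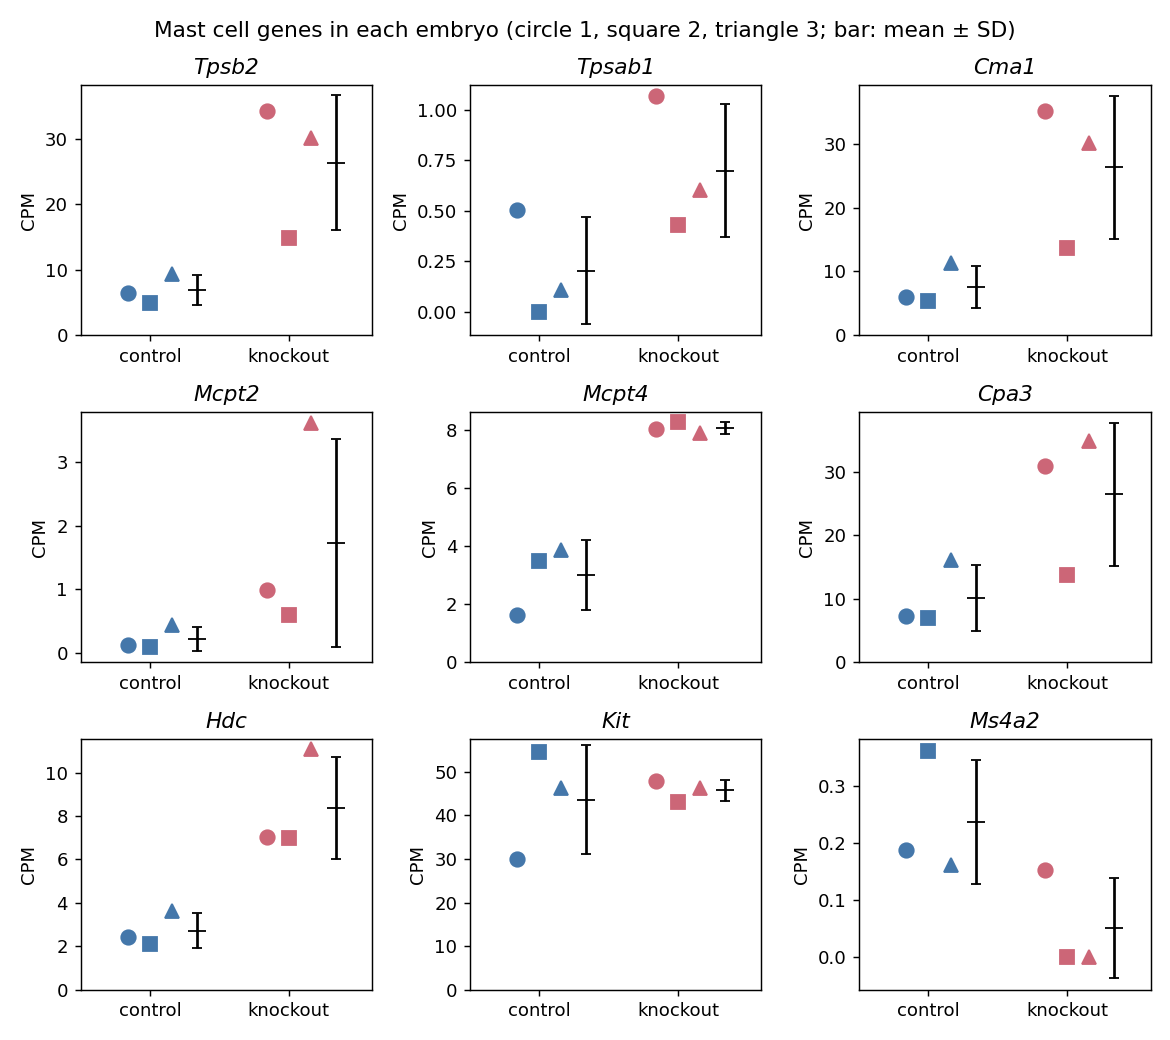
TMM-scaled read counts (CPM, vertical axis) of the 9 genes with reads in 3 control and 3 knockout embryos. Points are embryos and bars are mean ± SD; Tpsb2, Cma1, Mcpt2, Mcpt4 and Hdc have every knockout above every control, Tpsab1, Cpa3 and Kit overlap, and Ms4a2 is under 0.4 CPM throughout.

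The receptors did not follow the granule genes. Kit had 478, 1205 and 858 reads in the controls and 628, 804 and 694 in the knockouts. Its level was 29.96, 54.7 and 46.2 CPM in the controls and 47.9, 43.2 and 46.3 CPM in the knockouts. The knockouts lay within the range of the controls, and edgeR's log2 difference was 0.07 ± 0.21 (SE) with adjusted p = 0.994. The beta subunit gene of the IgE receptor, Ms4a2, had 3, 8 and 3 reads in the controls and 2, 0 and 0 in the knockouts. That is 14 against 2 reads, a ratio of 0.173 (95% interval 0.0191 to 0.753, counting error only), in the direction opposite to the proteases and too few to be tested. The alpha subunit gene Fcer1a, a defining marker of mature mast cells and basophils, was listed at 0 reads in all 6 embryos. A count of 0 allows up to 0.0530 CPM over the controls and 0.0642 CPM over the knockouts (3 reads per group). The IgE receptor genes that define mature mast cells were thus at or near 0 while granule proteases were read, and the set is described here by its genes and not as a number of mast cells.

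Of the 10 members, 7 had enough reads to be tested and 3 (Tpsab1, Fcer1a and Ms4a2) did not. Mcpt2 had enough only through its knockout reads (13, 11 and 54, against 2, 2 and 8 in the controls). In edgeR 0 of the 7 were called, while 0.0815% of the 14717 genes tested were called higher in the knockout. An unadjusted p under 0.05 was found for 6 of the 7, and for 4.77% of all genes tested. DESeq2 called 5 (Tpsb2, Cma1, Mcpt4, Cpa3 and Hdc, all higher, adjusted p = 9.7e-06 to 0.0444), where 0.635% of 16368 genes were called higher. In the authors' deposited table, an edgeR comparison over transcript rows, 5 members had an FDR under 0.05 (Tpsb2, Cma1, Hdc, Mcpt2 and Cpa3, with FDRs of 1.2e-05 to 0.0307), as had 0.429% of all 28644 rows in the same direction. The deposited log2 fold changes of these 5 were 1.79, 1.65, 1.53, 2.61 and 1.25 in that order, and Mcpt4 had an FDR of 0.0666 in that table. The 3 tests thus differ in their calls for the same reads. Since the set was put together with this contrast known, nothing is read from these counts.

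Separation of the embryos was counted in the same way. In 5 of the 7 members tested every knockout lay above every control, as in 5.4% of all genes tested. The median log2 fold change of the 7 was 1.62, against 0.00 over all genes tested, and 6 were above 1, as were 1.49% of all genes. Both shares describe genes that were chosen with this contrast in view. Mcpt2, which entered the test only through its knockout reads, is counted in both and lends them no support. The log2 fold changes of the 6 granule genes kept their sign in the 16 alternatives run, among them the fits with embryos left out. For genes with every knockout above every control, leaving out embryos could hardly turn the sign. Those fits thus say little about it.

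**Figure D2:**
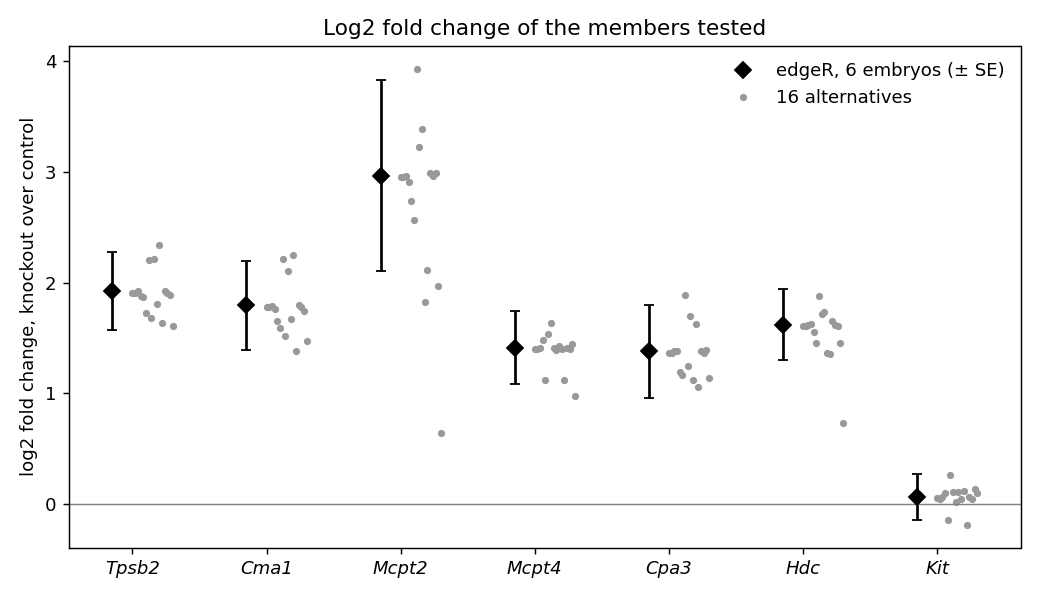
Log2 fold change of knockout over control (vertical axis) for the 7 members tested. Black diamonds are edgeR with 6 embryos (± SE) and grey points the 16 alternatives; the granule genes lie above 0 throughout, from 0.64 for Mcpt2 upwards, while Kit lies on both sides of 0.

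Taken as a sum, the 6 proteases gave 21.9, 20.9 and 41.4 CPM in the controls and 110, 51.4 and 107 CPM in the knockouts. The group means were 28.1 ± 11.5 and 89.7 ± 33.1 CPM (SD, n = 3 each), a ratio of 3.19. All knockouts lay above all controls, with control 3 and knockout 2 nearest to each other. Leaving out single embryos moved the log2 ratio, 1.67 with all 6, to between 1.498 (without knockout 1) and 2.07 (without control 3).

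The shares of Tpsb2, Cma1 and Cpa3 in the protease pool differed less than the size of the pool. Per transcript length (FPKM), Tpsb2, Cma1 and Cpa3 had mean levels of 2.85 ± 0.953, 2.91 ± 1.35 and 2.86 ± 1.57 FPKM in the controls (SD, n = 3), where Kit had the highest mean of the members at 3.81 ± 1.33 FPKM. The ranges of these 4 genes overlapped in the controls. In the knockouts Tpsb2 (11.2 ± 4.66 FPKM), Cma1 (10.2 ± 4.68) and Cpa3 (7.58 ± 3.16) had higher means than Kit (4.04 ± 0.390). Within embryos Tpsb2 was above Cma1 and Cma1 above Cpa3 in 5 of 6, including 3 of 3 knockouts, and control 3 had the reverse order. Mcpt4 (1.26 ± 0.550 and 3.36 ± 0.255 FPKM in controls and knockouts) and Hdc (0.472 ± 0.151 and 1.46 ± 0.320) were lower in mean. Mcpt2, Tpsab1 and Ms4a2 had group means under 1 FPKM, and Fcer1a was at 0. Tpsb2 made up 26.3% to 35.2% of the summed protease FPKM in the 6 embryos, Cma1 27.2% to 33.1% and Cpa3 20.4% to 31.2%. The scarce Mcpt2 made up 0.560% to 4.38% and Tpsab1 0% to 2.14%. The share of Cpa3 was 25.9%, 25.7% and 31.2% in the controls and 21.6%, 20.4% and 25.2% in the knockouts, and that of Mcpt4 was highest in control 2 (19.0%) and knockout 2 (18.0%) and 8.07% to 11.0% in the others. For each read of Cma1 there were 0.829 to 1.09 reads of Tpsb2 in every embryo. Cpa3 had 1.22 to 1.42 reads for each read of Cma1 in the controls and 0.880 to 1.16 in the knockouts, without overlap. For Mcpt4 and Hdc these ratios overlapped between the groups. Kit had 4.07 to 10.2 reads for each read of Cma1 in the controls and 1.37 to 3.17 in the knockouts.

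**Figure D3:**
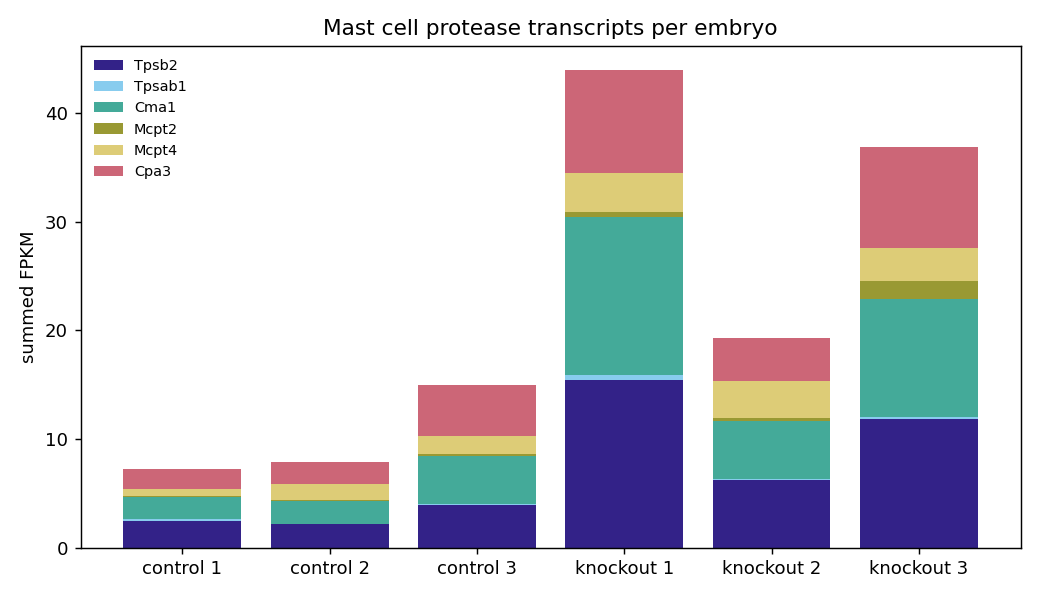
Summed FPKM (vertical axis) of 6 mast cell proteases in each embryo, stacked by gene. Bars of the controls reach 7.27 to 15.0 FPKM and those of the knockouts 19.3 to 43.96 FPKM, and Tpsb2, Cma1 and Cpa3 make up most of each bar.

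Likeness across embryos was taken over part of the set, without Kit, Ms4a2 and Fcer1a. Over the 7 members with at least 20 reads (Tpsb2, Tpsab1, Cma1, Mcpt2, Mcpt4, Cpa3 and Hdc), the Pearson r of log2 CPM for the 21 pairs over 6 embryos had a median of 0.87, from 0.39 (Mcpt4 with Tpsab1) to 0.99 (Cma1 with Tpsb2). Kit had r between -0.40 and 0.59 with them. The 6 points of each pair share libraries and the genotype difference, so these are descriptions. Of 14089 further genes ranked by their r to the mean of the 7, the highest were Qsox1 (r = 0.993), Zbtb16 (0.987), Neurl2 (0.986), Snrnp35 (0.983) and Cntn4 (0.982). Cntn4, a neural adhesion gene, had 8.52 to 11.0 CPM in the controls and 16.3 to 25.3 CPM in the knockouts (log2 fold change 1.16, adjusted p = 0.133). In the other 4 the log2 fold change was between 0.13 for Qsox1 and 0.66 for Zbtb16.

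Further genes of mast cells were taken from lists by role, and 0 members of them passed edgeR's test in either direction. Over all 14717 genes tested only 22 did, so nothing is read from that count. Of 8 other proteases found in mast cells, basophils or other granulocytes, 1 had enough reads: Prss34, a protease of basophils and mast cells, had 0.627, 0.499 and 0.539 CPM in the controls and 2.67, 0.644 and 0.534 CPM in the knockouts, so that knockout 1 alone stood above the rest. The basophil protease gene Mcpt8 had 9 reads over all embryos. Of 8 genes of granule storage and amine handling all 8 were tested, with a median log2 fold change of 0.25 and a range of 0.10 to 0.65. The most abundant were the SNARE gene Vamp8 (0.15), the heparin-modifying enzyme gene Ndst2 (0.21) and Ctsc (0.23), whose product activates granule proteases. Srgn, the core protein that binds granule proteases, had 0.65 and the vesicular amine transporter gene Slc18a2 0.27 (both adjusted p = 0.994); these were named after their values were seen.

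Of 13 genes of IgE receptor signalling and other mast cell receptors 11 were measured and 8 tested, with a median of 0.19. The highest of these was Il1rl1, the IL-33 receptor of mast cells and other cells, also named after its value was seen. It had 1.25, 2.31 and 3.77 CPM in the controls and 6.02, 4.08 and 7.21 CPM in the knockouts, without overlap (log2 fold change 1.23, adjusted p = 0.712 in edgeR). Fcer1g, the gamma chain shared with other Fc receptors, had 0.25, the kinase gene Lyn -0.12 and the ectoenzyme gene Enpp3 0.03. Mrgprb2, a receptor of connective tissue mast cells, had 26 reads over all embryos. Of 5 eicosanoid synthesis genes 4 were tested, with a median of 0.33. Ptgs1 was at -0.01, the prostaglandin D synthase gene Hpgds at 0.14, Alox5ap at 0.52 and Alox5 at 0.90. Among 5 of 6 transcription factors tested the median was -0.12. Gata2, which the inner ear also expresses, was at -0.54 (228 to 405 CPM in controls and 136 to 244 CPM in knockouts). Stat5b was at 0.05 and Mitf, shared with pigment cells, at -0.46 (adjusted p = 0.903 in edgeR for Mitf).

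Kit ligand and Kit signalling genes, 9 tested, had a median of -0.05. The ligand gene Kitl, singled out for its role after its values were seen, had 12.5, 30.2 and 26.3 CPM in the controls and 16.8, 20.9 and 12.3 CPM in the knockouts, which overlap (log2 fold change -0.47, adjusted p = 0.994). Histamine receptor genes Hrh1, Hrh2 and Hrh4 had 4, 2 and 11 reads over all embryos, and Hrh3, with 64 reads, was at 1.03 on the log2 scale (adjusted p = 0.994). The histamine-degrading methyltransferase gene Hnmt had 0.10. Of 4 protease inhibitor genes 2 were tested, with A2m at 0.00 and Serpinb1a at 1.10 (adjusted p = 0.795).

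Markers of other cells were measured beside the proteases, and their part in the result was not tested. The 6 melanocyte genes, which share Kit and Mitf with mast cells, had a summed level of 121 to 208 CPM in controls and 64.2 to 136 CPM in knockouts, and 0 of 6 had a positive log2 fold change. The 7 macrophage genes measured had 74.0 to 189 CPM in controls and 139 to 191 CPM in knockouts, with 6 of 7 positive and a median of 0.45. The 8 mesenchyme genes had 1342 to 2757 CPM in controls and 2543 to 2760 CPM in knockouts, with 7 of 8 positive and a median of 0.15. Control 1 was the lowest embryo in both lists, and its proteases summed to 21.9 CPM. The summed proteases were 0.882% to 1.63% of the mesenchyme sum in controls and 1.96% to 4.22% in knockouts, and 13.0% to 29.7% of the macrophage sum in controls and 37.0% to 60.5% in knockouts. These percentages did not overlap between the groups. The ratios of their means were 2.53 and 2.41, with 3.19 for the protease sum itself, and both were added after the data were seen. The mesenchyme sum was mostly reads of Col3a1 and Col1a2 (means over all embryos of 901 and 630 CPM). None of the defining markers of these lists was at 0 in all embryos.

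The 5 neutrophil genes summed to 2.07 to 8.51 CPM in controls and 2.14 to 22.8 CPM in knockouts, highest in knockout 2, which had the lowest protease level of the knockouts. The 3 erythroid genes measured had 299 to 587 CPM in controls and 169 to 450 CPM in knockouts, the 5 endothelial genes 198.7 to 394 and 189 to 306 CPM, and the 6 genes of glia and neurons 81.6 to 428 and 245 to 324 CPM. The 9 genes of the cochlear epithelium were all present, at a summed 5933 to 11713 CPM in controls and 12537 to 16264 CPM in knockouts, mostly reads of Oc90 (3038 to 6619 and 8220 to 10497 CPM). Without Oc90 the sums were 5094, 2895 and 3798 CPM in the controls and 3070, 4316 and 5768 CPM in the knockouts, which overlap. The tissue thus carried its labelled markers.

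**Figure D4:**
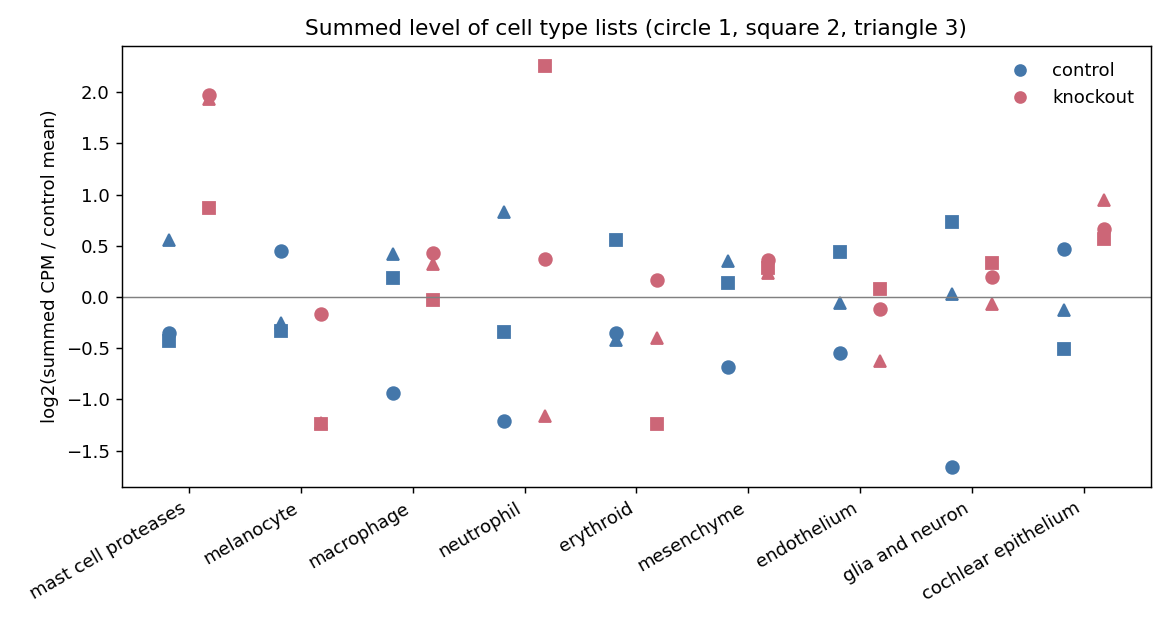
Summed CPM of each cell type list in each embryo, as log2 of its ratio to the control mean (vertical axis). Blue points are controls and red points knockouts; the mast cell proteases and the cochlear epithelium list have all knockouts above all controls (the latter only with Oc90 in the sum), while the melanocyte, macrophage, neutrophil, erythroid, mesenchyme, endothelium and glia and neuron lists overlap.

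Depth, the targeted gene, sex-linked genes and Fos were set beside the proteases. The embryos had 12547301 to 21568516 reads on genes. Esrp1 itself had 102 to 197 CPM in controls and 27.2 to 39.1 CPM in knockouts. Ddx3y, which is Y-linked, was at 94.97 CPM in knockout 2 and 81.9 CPM in knockout 3 and below 1 CPM in the other 4 embryos, which had Xist at 1098 to 1808 CPM. The protease sum was 110 CPM in knockout 1, which shares its sex marks with the controls, and 51.4 and 107 CPM in knockouts 2 and 3. A part of sex in the difference was not tested. With Xist as a covariate the log2 fold change of Tpsb2 was 2.34 (adjusted p = 0.0787) and that of Cma1 2.25 (adjusted p = 0.0829), in a fit that rests largely on knockout 1. Fos, an immediate early gene, was high in control 1 (153 CPM) and knockout 1 (64.6 CPM). With both embryos numbered 1 left out, the log2 fold changes of Tpsb2, Cma1, Cpa3 and Hdc were 1.63, 1.38, 1.06 and 1.66, and sex and genotype cannot be told apart there.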

How the data were processed

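PolyA RNA of 6 embryos was sequenced as 12 libraries with a directional kit. The table deposited by the authors gives, per the file headers, read counts per RefSeq transcript row without normalisation, 1 column per embryo (how its 2 libraries were combined is not stated), and FPKM per embryo. Its log2 fold changes and p-values (with FDR) are, per the file headers and the submitters' processing notes, those of the authors' edgeR comparison. The build is mm10, per the submitters' processing notes. The sources used here name no aligner or counter. Another 14 columns of the table were left unused.

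Each gene was taken as its row with most reads. Genes were kept with filterByExpr (minimum count 10), scaled by TMM and tested with edgeR 4.0.16's quasi-likelihood test in R 4.3.3 (knockout against control, 3 embryos each, Benjamini-Hochberg over 14717 genes, threshold 0.05). The SE was taken as the absolute log2 fold change divided by the root of edgeR's F. DESeq2 1.42.0 and limma 3.58.1 on log2(FPKM + 0.1) or log2(FPKM + 1) were alternatives. The value added before the log lowers the fold changes of low genes, as for Mcpt2, at 1.97 with 0.1 and 0.64 with 1. Correlations use log2 CPM with a prior count of 2. The edgeR step was tested on simulated data for this comparison (14592 genes): it called 58 of 100 true 2-fold changes, 86 of 100 true 4-fold changes and 9 unchanged genes. Changes were placed only in genes above a minimum of reads, and counts were drawn separately for each gene with edgeR's dispersions. Differences that many genes of an embryo share were not simulated, so these rates need not hold for the embryos here. Intervals (exact, 95%) cover counting error only. Members, lists and motifs were chosen with earlier results of these data known. The rule for named genes took the members, up to 3 most abundant genes of each list and the 5 genes most like the members. Other list genes, such as Srgn, Slc18a2, Il1rl1, Mrgprb2, Kitl, Hrh1 and Hrh2, fall outside it and were chosen after their values were seen. Genes absent from the table were not analysed here.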

Additional observations from a re-analysis of the deposited data

How the results depend on the processing

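The number of members called was 0 in edgeR with all 6 embryos and under 15 alternatives, with DESeq2 the exception at 5. Over all genes, 22 were called in the main edgeR test, 165 by DESeq2, 5 with Xist as a covariate and 159 with both embryos numbered 1 left out. Leaving out single embryos gave 0 to 30 genes over all (13 without control 2, 0 without control 3, 12 without knockout 1, 0 without knockout 2, 4 without knockout 3) and 0 members in every case. The log2 fold changes of Tpsb2, Cma1, Mcpt2, Mcpt4, Cpa3 and Hdc kept their sign under the 16 alternatives, with adjusted p = 9.7e-06 to 1.00 over all of them. Mcpt2 ranged from 0.64 with a pseudocount of 1 FPKM to 3.93. Kit, at 0.07, ranged from -0.14 (without control 1) to 0.26 (without control 2) and turned to -0.19 without both embryos numbered 1. The log2 ratio of summed proteases, 1.67, ranged from 1.498 to 2.07 with single embryos left out, and was 1.34 and 1.27 per mesenchyme and macrophage sum, alternatives added after the data were seen. In 5 members every knockout lay above every control under unscaled CPM, FPKM and DESeq2 size factors. With embryos left out the count was 5 to 6 (6 without control 3 or knockout 2, where Cpa3 separated too). Leaving out an embryo cannot undo such a separation, so that count could only stay or rise. The share over all genes was taken only in CPM with all 6 embryos (5.4%). Nothing is therefore read from the counts under the other settings.

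With the embryo number as a replicate block, 6 genes and 0 members were called. Same-numbered embryos had correlated deviations of 0.08, 0.18 and 0.03, and differently numbered ones of -0.22 to 0.16. Of the same-numbered embryos, only control 2 and knockout 2 were each other's best match. Control 1 and knockout 3, which differ in number, were also each other's best match (0.11). With 3 embryos per group these values cannot decide whether the numbers pair the samples. Tpsab1, Ms4a2 and Fcer1a are limited by depth, with 41, 16 and 0 reads in all. The embryos are separate animals, 3 per group.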
